A study of Homo sapiens with 24 samples.

Results

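The hypoxia targets and glycolytic enzymes described here were 36 genes chosen by name: 17 targets of hypoxia-inducible factor (HIF) and 19 enzymes or regulators of glycolysis. All 36 were found among the 58051 genes of the count matrix, and 35 passed the filter on low counts. RNA had been sequenced from neurons derived from LUHMES, an immortalised line of human mesencephalic precursors that turns into post-mitotic neurons of dopaminergic type. It is 1 cell line, and every library shares it. The 8 groups had 3 libraries each, labelled as biological samples, and all were harvested 6 h after treatment in medium with 1% DMSO. The control group received this vehicle alone. Added to it in the others were MS275 (entinostat, which blocks class I histone deacetylases) at 5 µM, 5 µM paraquat (a bipyridinium herbicide), 5 µM MPP (1-methyl-4-phenylpyridinium, which enters dopaminergic neurons and inhibits complex I), 2 µM ziram (zinc dimethyldithiocarbamate, a fungicide), 1 µM rotenone (a complex I inhibitor), 1 µM 6-HD (hydroxydopamine) and 0.5 µM methylmercury (given as its chloride). Doses differed between most toxicants, so values of different toxicants stand side by side and are not a ranking of the compounds.

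HIF is a pair of proteins, an oxygen-labile alpha subunit such as HIF1A and its stable partner ARNT. Where oxygen, iron and oxoglutarate are at hand, the prolyl hydroxylases EGLN1 and EGLN3 mark the alpha subunit for VHL, which sends it to the proteasome. When that step fails, HIF binds short DNA motifs and raises genes for glucose uptake (SLC2A1, SLC2A3), glycolysis (HK2, LDHA, PFKFB3), restraint of pyruvate oxidation (PDK1), mitochondrial turnover (BNIP3, BNIP3L) and its own brake (EGLN3). Neurons run on both glycolysis and respiration, and most of the glycolytic enzymes are abundant in them whatever the state of HIF.

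Levels are given as CPM, the reads of a gene relative to the library's total, which was scaled by the TMM method. A difference is on the log2 scale with the standard error (SE) of the edgeR fit, and a gene was called where the edgeR quasi-likelihood adjusted p over 18852 genes was under 0.05. Library totals ranged from 9688650 to 46863890 reads. All 12 pan-neuronal markers were at or above 1 CPM in each group, and their summed level ranged from 7118 to 9040 CPM. Of 12 dopaminergic markers, 7 or 8 reached 1 CPM in each group. All 8 cycling cell markers were also at or above 1 CPM in each group, although the cells are described as post-mitotic. They summed to 398 to 443 CPM in DMSO, and whether some cells still cycled was not tested. Of 10 astrocyte and oligodendrocyte markers, 5 reached 1 CPM in DMSO, with a sum of 49.1 to 53.4 CPM. The 6 endothelial and fibroblast markers summed to 3.43 to 4.76 CPM in DMSO. In such bulk RNA, fewer cells of a type and less RNA per cell cannot be told apart.

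DMSO replicate 3 held more RNA of the hypoxia targets than the other DMSO libraries. It was the highest of the 3 for 14 of the 16 tested targets and the lowest for 0, where it was the highest for 34.3% of all tested genes. Its largest excess among the members above 1 CPM in all DMSO libraries was that of hexokinase HK2, at 32.0 CPM against 16.8 and 17 CPM. PDK1 stood at 76.5 CPM there against 64.5 and 57.4 CPM. Of the 19 glycolytic genes it was highest for 5. In other groups, too, a single replicate was highest for many of the 16 targets. Paraquat replicate 3 was highest for 12, ziram replicate 1 and 6-HD replicate 1 for 11 each and MS275 replicate 1 for 10. These libraries were highest for 30.9% to 33.8% of all tested genes. With methylmercury, MPP and rotenone the leading replicate had 9, 7 and 7 targets. DMSO replicate 3 was also the deepest DMSO library, with 33365035 reads against 14290671 and 24678012, and the part of depth in its higher targets was not tested. Each comparison with DMSO is therefore given with and without this library; without it, 19782 genes were tested. A further contrast set each toxicant against the mean of the other 6 toxicants, in which no DMSO library takes part. These contrasts share libraries with one another, so a toxicant with high values lowers the others.

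**Figure D1:**
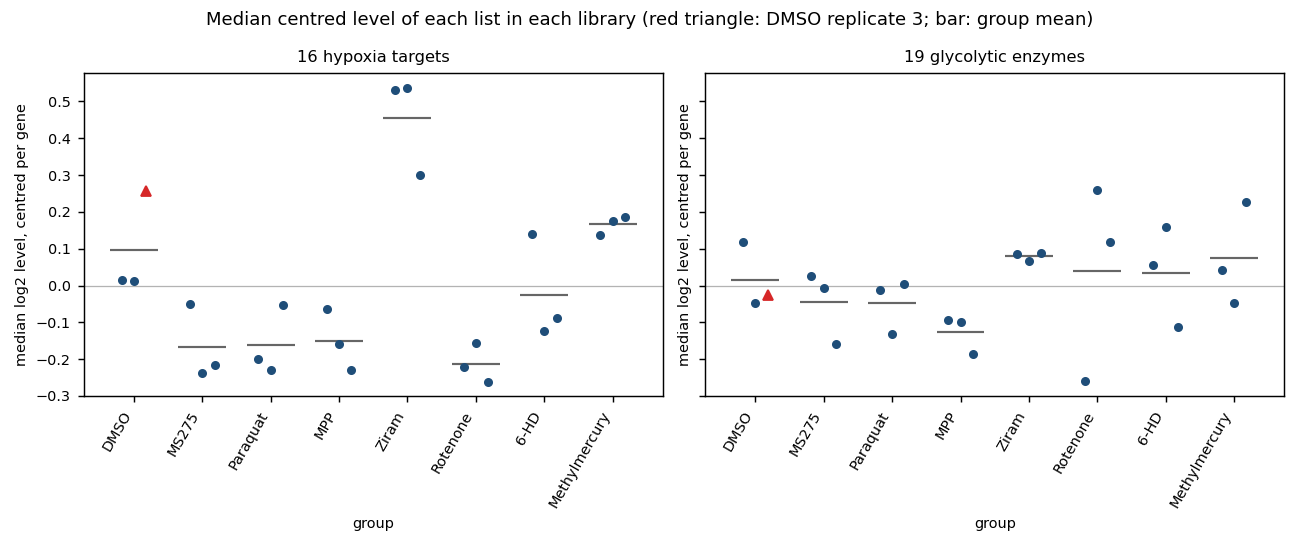
Median over the 16 tested hypoxia targets (left) and the 19 glycolytic genes (right) of the log2 level, centred on each gene's mean over the 24 libraries, for each library by group; the red triangle is DMSO replicate 3 and bars are group means. The ziram libraries sit highest for hypoxia targets, from 0.30 to 0.54, DMSO replicate 3 at 0.26 stands apart from the other DMSO libraries at 0.02 and 0.01, and the glycolytic medians of each toxicant but MPP overlap with those of DMSO.

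In vehicle-treated neurons the abundant members were enzymes of the lower steps of glycolysis. Compared per kilobase of merged exons, which counts all annotated transcripts of a gene, GAPDH stood at 543 ± 45.2, TPI1 at 520 ± 39.0, LDHB at 465 ± 7.08 and ENO1 at 257 ± 20.4 CPM per kb in DMSO (SD, n = 3). The first of these makes the NADH of glycolysis and LDHB is the lactate dehydrogenase subunit favoured where lactate is used. Among hypoxia targets BNIP3L (56.1 ± 2.35) and MXI1 (33.4 ± 0.43) led in CPM per kb, followed by BNIP3 (21.8 ± 2.67) and SLC2A1 (17.01 ± 2.17). LDHA and HK2, named above as raised by HIF, were scarcer than LDHB and HK1. LDHA had 40.5 ± 4.404 CPM per kb, and HK2 had 3.61 ± 1.43 against 31.5 ± 2.22 of HK1, the hexokinase of the brain. This is not a rule for isoenzymes tied to HIF in general. In other pairs, ENO1 had more reads than ENO2 and ALDOA more than ALDOC in every DMSO library. EGLN3 (0.79 ± 0.10) and PFKP (0.79 ± 0.09) were scarce.

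A pair of strong hypoxia markers was near the limit of detection. The carbonic anhydrase CA9 had 0, 0 and 5 reads in the DMSO libraries and at most 11 reads in any library, and it was not tested. ADM, a secreted vasodilator peptide, had 0, 3 and 46 reads in DMSO replicates 1, 2 and 3 and 0 in all 3 rotenone libraries, so its DMSO level rests on replicate 3 and no fold is given.

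**Figure D2:**
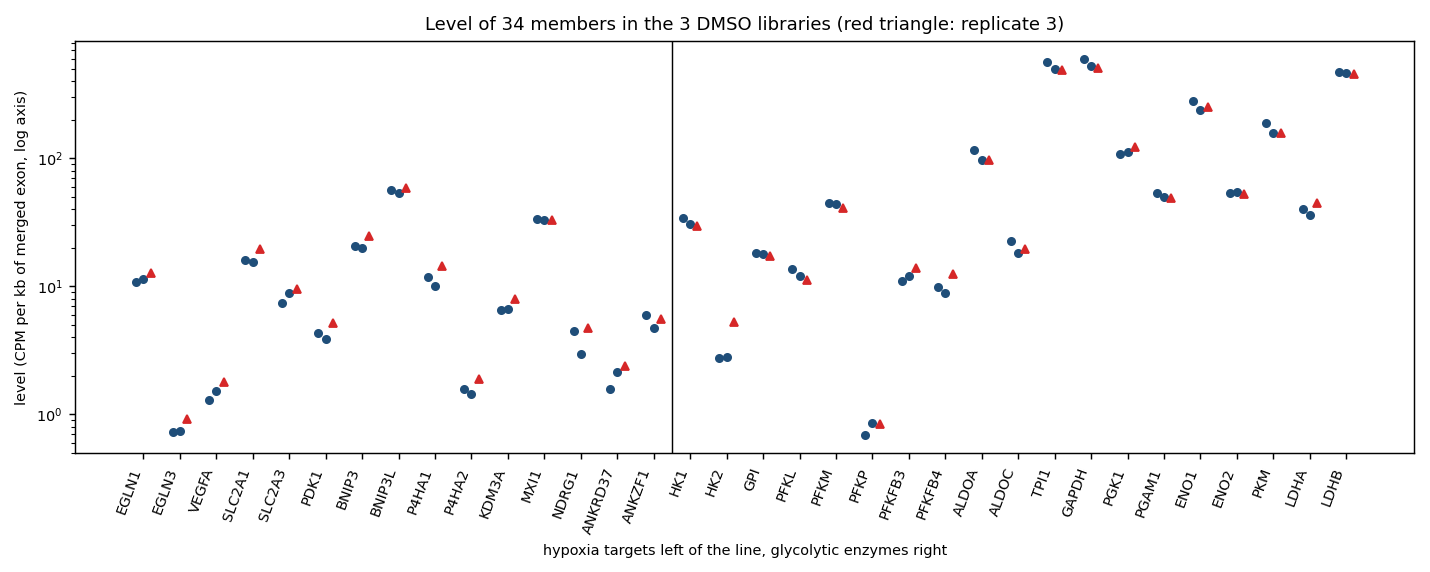
Level of 34 members (CA9 and ADM left out) in each of the 3 DMSO libraries, in CPM per kb of merged exon on a log axis; the red triangle is replicate 3. GAPDH, TPI1 and LDHB lie from 457.9 CPM per kb upward and EGLN3 and PFKP at most at 0.912, and HK2 shows the widest gap between replicate 3 and the other libraries.

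The list median of the hypoxia targets was highest with ziram among the 8 groups, although EGLN3 and NDRG1 were highest with MS275. PDK1, BNIP3, SLC2A1, P4HA1, KDM3A and HK2 were higher in every ziram library than in any DMSO library. So were EGLN3, VEGFA, P4HA2, ANKRD37, PFKP, PFKFB3, ALDOA, PGK1 and ENO1, while MXI1, PFKM and LDHB were lower in every ziram library. How many of all genes separate in this way, with ziram or another toxicant, was not counted. PDK1, the kinase that shuts off pyruvate dehydrogenase, stood at 108, 97.1 and 79.1 CPM with ziram and at 64.5, 57.4 and 76.5 CPM in DMSO. BNIP3, a mitophagy receptor, stood at 196, 175 and 161 CPM against 109, 106 and 132 CPM. SLC2A1, the glucose transporter of the blood-brain barrier and of many cells under hypoxia, stood at 104, 108 and 106 CPM against 75.8, 73.2 and 92.1 CPM. For all 3 genes the ziram libraries lay above DMSO replicate 3 too, for PDK1 narrowly.

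Against DMSO, 2 of 35 tested members passed, both higher, where 0.53% of all genes did (0.408% higher and 0.122% lower): BNIP3 rose 1.53-fold (log2 0.62, SE 0.114, adjusted p = 0.00329) and PFKFB3, which makes the activator of phosphofructokinase, rose 1.37-fold (0.46, SE 0.106, adjusted p = 0.0357). The BNIP3 call was lost without DMSO replicate 2 (and without ziram replicate 1, where the adjusted p was 0.0684), and that of PFKFB3 in 5 of 6 such fits. PDK1 (0.52, SE 0.133) and SLC2A1 (0.40, SE 0.102) did not pass, with adjusted p of 0.0785 and 0.0809. Without DMSO replicate 3 the count was 7, all higher, against 0.364% of all genes: BNIP3 (0.72), PFKFB3 (0.56), PDK1 (0.64), SLC2A1 (0.51), P4HA1 (0.75), KDM3A (0.50) and HK2 (1.30). The median log2 difference of the hypoxia targets was 0.39 with all libraries and 0.51 without that one, and over all genes it was 0.01.

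Against the other toxicants, 14 of 35 members were higher with ziram and 0 lower, where 4.05% of all genes were called (2.18% higher and 1.87% lower). They included 10 hypoxia targets and 4 glycolytic genes. HK2 led at 50.7, 41.05 and 32.8 CPM, above all other libraries, and exceeded the mean of the other toxicants 3.25-fold (1.70, SE 0.184, adjusted p = 1.88e-07). PDK1 (0.98, SE 0.0943), VEGFA (0.93, SE 0.127), P4HA1 (0.88, SE 0.111), SLC2A1 (0.78, SE 0.0735) and BNIP3 (0.75, SE 0.0818) followed, with adjusted p of 1.59e-05 or lower. VEGFA is the main angiogenic growth factor and P4HA1 a collagen prolyl hydroxylase. The others were KDM3A (0.67), a histone demethylase, ANKRD37 (0.64), EGLN3 (0.56), PFKFB3 (0.51), LDHA (0.50), SLC2A3 (0.48), the transporter that supplies neurons, PFKFB4 (0.37) and EGLN1 (0.31). Of these 14, the calls of EGLN1, EGLN3, ANKRD37 and PFKFB4 were lost without ziram replicate 1 and also without replicate 2, and the count ranged from 10 to 14. With MS275 left out of the mean, an alternative chosen after seeing the data, 16 were higher, including all 14, where 3.97% of all genes were called. The same change left 11 calls for MPP (18.9% of all genes), 10 for rotenone (8.61%), 7 for methylmercury (3.97%), 0 for 6-HD (0.637%) and 0 for paraquat (0.313%).

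The abundant glycolytic enzymes ENO1 and GAPDH did not pass against DMSO. In ziram ENO1 stood at 1501, 1502 and 1481 CPM against 1474, 1262 and 1336 CPM in DMSO, and GAPDH at 1493, 1527 and 1529 CPM against 1771, 1566 and 1517 CPM. The ziram libraries of GAPDH lay within the range of DMSO or just below it, and the median log2 difference of the 19 glycolytic genes from DMSO was 0.05.

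**Figure D3:**
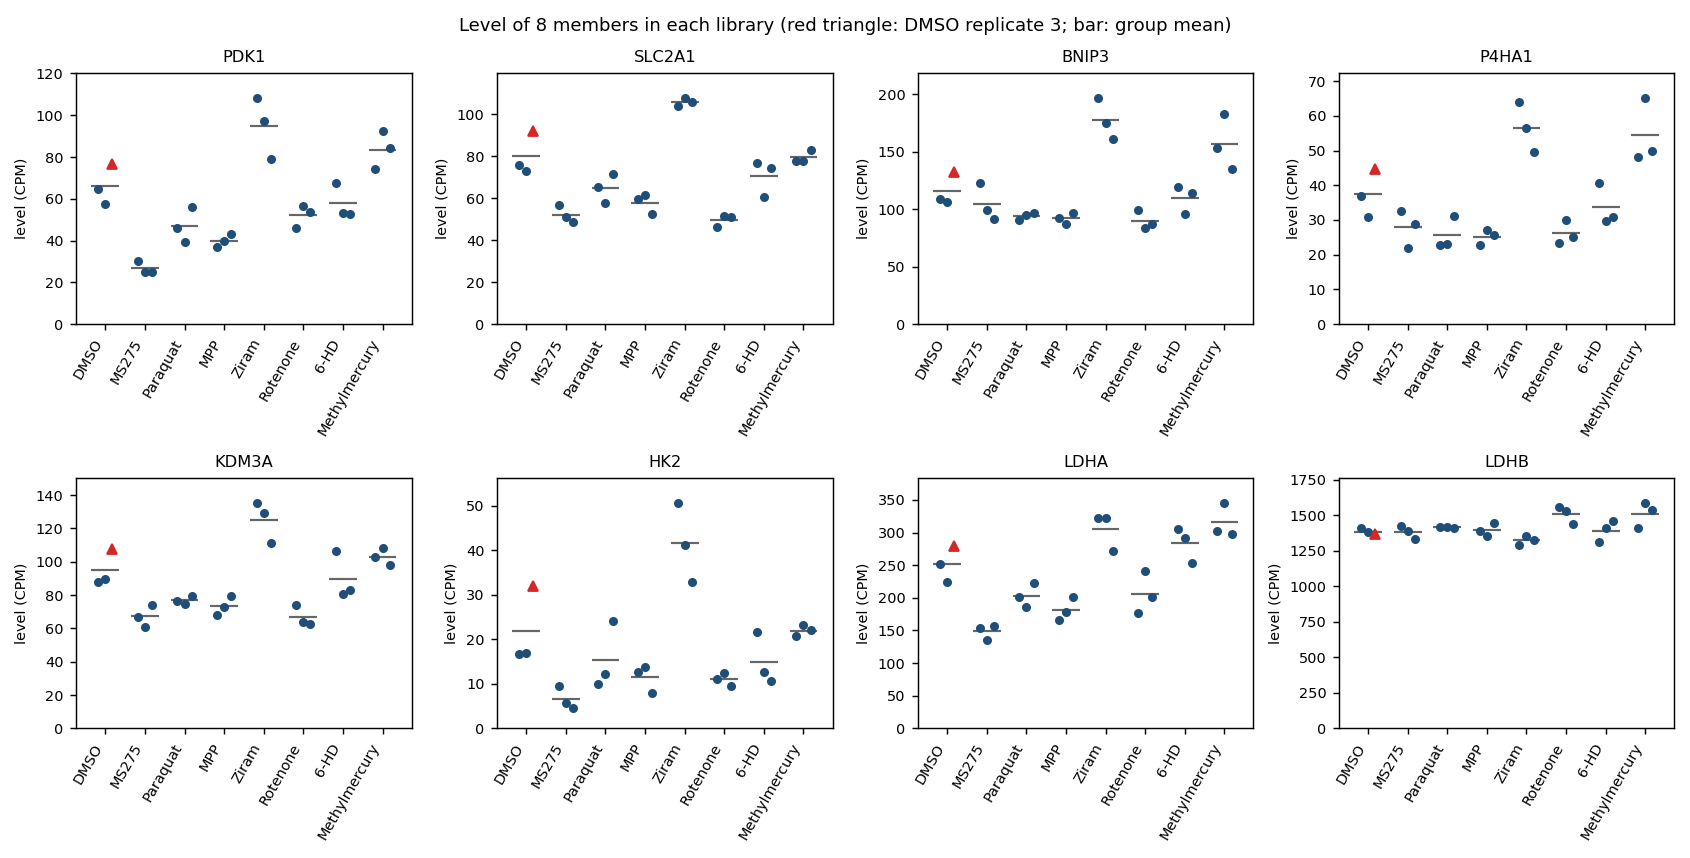
Level in CPM of PDK1, SLC2A1, BNIP3, P4HA1, KDM3A, HK2, LDHA and LDHB in each of the 24 libraries by group; the red triangle is DMSO replicate 3 and bars are group means. For HK2 the ziram libraries (32.8 to 50.7 CPM) just clear DMSO replicate 3 (32.0 CPM), which itself is far above the other DMSO libraries, whereas LDHB lies between 1295 and 1590 CPM throughout.

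The promoters of 4 members called higher with ziram against the other toxicants are shown for the core of the hypoxia response element. That of LDHB, which was not called, is shown for contrast. Of the 4, LDHA overlapped with DMSO in the ziram libraries. Each is the RefSeq window (GRCh38.p14) from 250 bases before to 50 bases after the start of the gene, on the strand of the gene, with each ACGTG on either strand in capitals, so that CACGT in capitals is a match on the opposite strand and CACGTG holds a match on both. The windows are chr10:131981874-131982173 (minus strand) for BNIP3, chr10:73096817-73097116 (minus) for P4HA1, chr2:74833877-74834176 (plus) for HK2, chr11:18394313-18394612 (plus) for LDHA and chr12:21657793-21658092 (minus) for LDHB.
BNIP3: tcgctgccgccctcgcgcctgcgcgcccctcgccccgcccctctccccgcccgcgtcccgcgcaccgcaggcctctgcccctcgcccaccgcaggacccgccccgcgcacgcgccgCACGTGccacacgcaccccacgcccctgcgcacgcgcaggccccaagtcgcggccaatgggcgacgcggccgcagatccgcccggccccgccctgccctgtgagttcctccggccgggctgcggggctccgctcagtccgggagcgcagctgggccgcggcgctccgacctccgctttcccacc
P4HA1: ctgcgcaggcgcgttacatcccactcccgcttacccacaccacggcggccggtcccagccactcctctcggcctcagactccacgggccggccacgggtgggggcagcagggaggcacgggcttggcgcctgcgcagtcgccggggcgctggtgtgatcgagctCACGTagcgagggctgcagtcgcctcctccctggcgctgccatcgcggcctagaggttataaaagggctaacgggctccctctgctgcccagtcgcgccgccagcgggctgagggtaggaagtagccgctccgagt
HK2: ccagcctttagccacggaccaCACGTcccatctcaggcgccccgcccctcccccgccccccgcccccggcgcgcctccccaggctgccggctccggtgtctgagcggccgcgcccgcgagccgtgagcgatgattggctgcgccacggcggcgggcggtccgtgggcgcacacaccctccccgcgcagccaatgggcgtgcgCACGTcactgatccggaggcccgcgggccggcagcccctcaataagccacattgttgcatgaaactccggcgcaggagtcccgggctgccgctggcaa
LDHA: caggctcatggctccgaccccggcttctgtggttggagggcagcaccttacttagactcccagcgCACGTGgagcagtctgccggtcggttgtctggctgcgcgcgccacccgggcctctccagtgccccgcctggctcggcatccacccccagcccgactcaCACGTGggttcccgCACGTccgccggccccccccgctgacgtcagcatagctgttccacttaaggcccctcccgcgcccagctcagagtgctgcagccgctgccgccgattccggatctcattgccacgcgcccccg
LDHB: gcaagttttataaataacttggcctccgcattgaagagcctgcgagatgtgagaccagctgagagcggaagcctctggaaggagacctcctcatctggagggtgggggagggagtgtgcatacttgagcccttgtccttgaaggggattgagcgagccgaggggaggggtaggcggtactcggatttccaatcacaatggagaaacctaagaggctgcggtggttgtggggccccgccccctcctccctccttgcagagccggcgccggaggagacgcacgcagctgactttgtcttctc
ACGTG occurred 5 times in the LDHA window counting both strands, 2 times each in those of BNIP3 and HK2, 1 time in that of P4HA1 and 0 times in that of LDHB. The other core, GCGTG, occurred 4 times in the window of BNIP3, 1 time each in those of HK2, LDHA and LDHB and 0 times in that of P4HA1. Windows were at hand for 31 of the 36 members. ACGTG was in 5 of 12 windows of hypoxia targets (41.7%) and 8 of 19 of glycolytic genes (42.1%), and in 21.4% of all 35114 promoter windows of this length. GCGTG was in 4 of the 12 and 10 of the 19 windows, and in 36.5% of all windows. For a member only the first window listed was used, whereas the shares of all windows took every window, unmatched by gene type. The shares are thus over unlike sets. The windows of PDK1, SLC2A1 and KDM3A, also called higher with ziram against the other toxicants, are not shown and held no ACGTG. Those of SLC2A1 and KDM3A each held 1 GCGTG. The glycolytic genes whose windows held ACGTG included GAPDH and PGK1, which were called in 0 comparisons. A match is a string of letters and not a measured binding site.

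With methylmercury, P4HA1, BNIP3 and LDHA were higher in each library than in any DMSO library, while PDK1 and SLC2A1 overlapped with DMSO. EGLN3, ANKZF1, PFKFB3, PGK1, ENO1 and LDHB were also higher in each library, and GPI was lower in each. P4HA1 stood at 48.2, 65.1 and 49.9 CPM with methylmercury and at 36.8, 30.9 and 44.7 CPM in DMSO. BNIP3 stood at 153, 183 and 135 CPM, above the 109, 106 and 132 CPM of DMSO. The lowest methylmercury library of PDK1, at 74.1 CPM, fell below DMSO replicate 3.

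With methylmercury 0 members passed against DMSO, where 0.286% of all genes did (0.223% higher and 0.0637% lower). At an unadjusted p under 0.05 there were 7 members, all higher, where 11.5% of all genes were, and DESeq2 called 2 members and 339 genes in all. BNIP3 (0.44, SE 0.115) had an adjusted p of 0.103, and of 0.0597 without DMSO replicate 3, where 0 members and 0.167% of all genes were called. PDK1 (0.33, SE 0.134) had an adjusted p of 0.302 and SLC2A1 (-0.01, SE 0.103) one of 0.98. Against the other toxicants 8 members were higher and 0 lower, where 8.44% of all genes were called (4.55% higher and 3.89% lower). P4HA1 (0.81, SE 0.113), PDK1 (0.76, SE 0.0971), LDHA (0.56, SE 0.0784) and BNIP3 (0.54, SE 0.0838) had adjusted p of 0.000154 or lower. The calls of these 4 held in all 21 fits without 1 library, whereas KDM3A (0.34), SLC2A1 (0.30), PFKFB3 (0.26) and MXI1 (0.22) each lost theirs without methylmercury replicate 2, which left 4 calls. The cycling markers, 8 genes, summed to 467 to 657 CPM with methylmercury and 398 to 443 CPM in DMSO, 2 of the 8 were called higher, and their part in these values was not tested.

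With MPP, PDK1, LDHA and SLC2A1 were lower than in DMSO. PDK1 stood at 36.7, 39.9 and 43.0 CPM, below every DMSO library. LDHA, the lactate dehydrogenase subunit favoured where pyruvate becomes lactate, stood at 166, 178 and 202 CPM against 252, 224 and 279 CPM. SLC2A1 stood at 59.8, 61.6 and 52.5 CPM, again with no overlap with DMSO.

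Against DMSO 7 of 35 members were lower with MPP and 0 higher, where 10.8% of all genes were called (5.77% higher and 5.02% lower): PDK1 (-0.73, SE 0.136, adjusted p = 0.000449), SLC2A1 (-0.47, SE 0.104, 0.00255), LDHA (-0.47, SE 0.108, 0.00385), P4HA1 (-0.58, SE 0.16, 0.0162), KDM3A (-0.37, SE 0.107, 0.0214), HK2 (-0.94, SE 0.282, 0.0284) and PFKFB3 (-0.34, SE 0.107, 0.0384). BNIP3 (-0.33, SE 0.115) did not pass, with an adjusted p of 0.0589. Without DMSO replicate 3 only PDK1 (-0.61, adjusted p = 0.00818), LDHA (-0.39, 0.0403) and SLC2A1 (-0.36, 0.0452) were called, where 7.01% of all genes were. Those 3 calls held in all 6 fits without 1 library, and the count was also 3 without MPP replicate 1. The median difference of the hypoxia targets was -0.29 with all libraries and -0.12 without DMSO replicate 3.

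Relative to the other toxicants, 11 members were lower with MPP and 0 higher, where 23.9% of all genes were called (14.3% higher and 9.64% lower). PFKFB3 (-0.42, SE 0.0847), PDK1 (-0.48, SE 0.108), LDHA (-0.37, SE 0.0846) and BNIP3 (-0.36, SE 0.0902) kept the call in all 21 fits without 1 library. The largest difference was that of EGLN3 (-0.60, SE 0.18, adjusted p = 0.0143), lost without MPP replicate 2. P4HA1 (-0.49, SE 0.127) and PFKL (-0.47, SE 0.118), the liver-type phosphofructokinase, were also among them, and so were ALDOC, ENO1, SLC2A1 and KDM3A. The count fell to 7 without MPP replicate 1 and to 6 without replicate 2 or 3.

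Paraquat, a pyridinium compound like MPP and given at the same 5 µM, had 0 members called against DMSO, where 0% of all genes were, with and without DMSO replicate 3. At an unadjusted p under 0.05 there were 6 members, all lower, where 0.965% of all genes were, and DESeq2 called 0 members and 0 genes in all. PDK1 stood at 45.8, 39.5 and 55.9 CPM and had a difference of -0.50 (SE 0.136), which was -0.37 without DMSO replicate 3. SLC2A1 (-0.32, SE 0.104) and BNIP3 (-0.30, SE 0.115) lay on the same side. The adjusted p of each was 1, and the 3 paraquat libraries of PDK1 and SLC2A1 lay below every DMSO library. Relative to the other toxicants 0 members were called, where 1.78% of all genes were (0.759% higher and 1.02% lower); 8 had an unadjusted p under 0.05, all lower, where 14.2% of all genes had, and DESeq2 called 4 members and 716 genes in all.

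Set against each other, MPP and paraquat differed in 1 of 35 members, where 11% of all genes were called (6.04% higher and 4.94% lower). PFKL stood at 87.7, 93.2 and 75.0 CPM with MPP and at 129.9, 113.8 and 117.5 CPM with paraquat, without overlap (-0.50, SE 0.149, adjusted p = 0.0282). This call was lost in 4 of 6 fits without 1 library. The 95% interval of the difference reached from -0.52 to 0.04 for PDK1, from -0.37 to 0.06 for SLC2A1 and from -0.27 to 0.20 for BNIP3. These intervals allow differences as large as many described here, so the compounds are not shown to act alike on these genes.

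Rotenone, which like MPP inhibits complex I, had the lowest group means of SLC2A1 and EGLN3. SLC2A1 stood at 46.4, 51.5 and 51.3 CPM and did not overlap with the 73.2 to 92.1 CPM of DMSO. EGLN3 stood at 2.71, 1.78 and 2.95 CPM against 5.34, 5.45 and 6.71 CPM. PDK1, at 45.9, 56.8 and 53.7 CPM, was just below the DMSO libraries and not called (-0.35, SE 0.137, adjusted p = 0.136).

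Against DMSO 6 members were lower and 1 higher, where 5.52% of all genes were called (2.76% in each direction). Lower were SLC2A1 (-0.70, SE 0.106, adjusted p = 7.45e-05), EGLN3 (-1.21, SE 0.252, 0.00307), KDM3A (-0.51, SE 0.108, 0.00399), HK2 (-1.02, SE 0.295, 0.0368), EGLN1 (-0.34, SE 0.0984, 0.039) and PFKFB3 (-0.37, SE 0.109, 0.0419). Higher was ANKZF1 (0.39, SE 0.118, 0.0448), a factor of ribosome-linked protein quality control, whose call held in 1 of 6 fits without 1 library. BNIP3 (-0.36, SE 0.116) had an adjusted p of 0.0634. Without DMSO replicate 3 only SLC2A1 (-0.59, adjusted p = 0.00213) and EGLN3 (-1.09, 0.0268) were called, where 2.71% of all genes were. The count was 4 without rotenone replicate 3. Fitted with DMSO alone, rotenone had 1 member called.

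Relative to the other toxicants 7 members were lower and 1 higher with rotenone, where 10.2% of all genes were called (5.55% higher and 4.69% lower). EGLN3 (-1.40, SE 0.212, adjusted p = 4.69e-05), SLC2A1 (-0.50, SE 0.0848), PFKFB3 (-0.45, SE 0.0869), BNIP3 (-0.39, SE 0.0919) and KDM3A (-0.38, SE 0.0859) kept the call in all 21 fits without 1 library. VEGFA (-0.63, SE 0.156) lost it without rotenone replicate 3, and P4HA1 (-0.43, SE 0.131) without replicate 1 or 3. The 1 higher gene was MXI1 (0.23, SE 0.0587), a repressor that competes with MYC for its partner, whose call was lost without rotenone replicate 1. That library held less of the glycolytic enzymes than its replicates: PKM stood at 1150, 1778 and 1567 CPM and ENO1 at 1089, 1742 and 1436 CPM in rotenone replicates 1, 2 and 3. Without it the count was 15, 8 higher and 7 lower, of which 6 were among the 8 called with all libraries, and 2471 of all genes were called. The median difference of the 19 glycolytic genes from DMSO, 0.06 with all libraries, ranged from -0.09 to 0.22 over the fits without 1 library. Of 10 tested dopaminergic markers 1 was called with rotenone: SLC6A3, the dopamine transporter, which made up most of their summed level (904 to 1248 CPM, against 657 to 775 CPM in DMSO), stood at 1048 ± 181.5 CPM against 635.7 ± 59.9 CPM (SD, n = 3). Its part in these results was not tested.

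MS275 moved the members in both directions, with the strongest fall in HK2 and PDK1 and the strongest rise in EGLN3 and NDRG1. PDK1 stood at 30.3, 24.8 and 24.9 CPM and HK2 at 9.47, 5.61 and 4.66 CPM, each far below all DMSO libraries. EGLN3 stood at 16.2, 14.7 and 12.8 CPM against 5.34, 5.45 and 6.71 CPM. NDRG1, a stress-responsive gene that HIF can raise, stood at 96.3, 97.5 and 73.2 CPM against 44.1, 28.9 and 46.1 CPM.

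Against DMSO 17 of 35 members passed, 6 higher and 11 lower, where 43.2% of all genes did (20.1% higher and 23% lower), a share near that of the members (48.6%). Among hypoxia targets 3 were higher, EGLN3 (1.32, SE 0.217), NDRG1 (1.17, SE 0.168) and P4HA2 (0.76, SE 0.143), and 8 were lower. PDK1 (-1.31, SE 0.139, adjusted p = 8.21e-09), SLC2A3 (-0.74, SE 0.114), MXI1 (-0.71, SE 0.0784) and SLC2A1 (-0.62, SE 0.104) fell furthest, and KDM3A, EGLN1, P4HA1 and BNIP3L were lower by 0.25 to 0.50 on the log2 scale. BNIP3, at 123, 99.1 and 91.6 CPM, did not pass (-0.15, SE 0.115, adjusted p = 0.317). Both glucose transporters were thus lower, with SLC2A3 at 33.5, 31.6 and 29.9 CPM against 46.0, 54.4 and 58.3 CPM.

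Of the glycolytic genes HK2 (-1.73, SE 0.298, adjusted p = 2.02e-05), LDHA (-0.76, SE 0.108) and PGAM1 (-0.28, SE 0.095) were lower with MS275. PFKP (0.77, SE 0.29), PFKL (0.41, SE 0.148) and ENO2 (0.35, SE 0.0863), the neuronal enolase, were higher. PFKP and PFKL lost their calls in 5 and 4 of 6 fits without 1 library. Without DMSO replicate 3, 13 members were called, 4 higher and 9 lower, where 34.3% of all genes were, and the losses were PFKP, PFKL, P4HA1 and BNIP3L. Relative to the other toxicants 21 members were called, 8 higher and 13 lower, where 56% of all genes were (28.6% higher and 27.4% lower). The 8 included ADM, near the limit of detection at 0.76 CPM with MS275, whose call was lost without MS275 replicate 1 or 2. Cell type markers moved as well. The 10 astrocyte and oligodendrocyte markers summed to 93.8 to 96.9 CPM with MS275 and 49.1 to 53.4 CPM in DMSO. The 6 endothelial and fibroblast markers summed to 24.5 to 29.5 CPM and 3.43 to 4.76 CPM. Of 10 tested dopaminergic markers 7 were higher and 1 lower with MS275, where 43.2% of all genes were called. Their listed set summed to 1050 to 1261 CPM against 657 to 775 CPM in DMSO, with SLC6A3 at 1010 ± 116 CPM with MS275. Of 8 cycling cell markers 0 were higher and 4 lower. The part of these markers in the result was not tested.

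With 6-HD, 0 members were called against DMSO, where 0.0106% of all genes were, and 0 without DMSO replicate 3, where 0% of all genes were. At an unadjusted p under 0.05 there were 2 members, both lower, which is the share of all genes (5.7%), and DESeq2 called 0 members and 11 genes in all. PDK1 (-0.19, SE 0.136), SLC2A1 (-0.19, SE 0.104) and BNIP3 (-0.08, SE 0.115) had adjusted p of 0.872 or higher, and all 3 overlapped with DMSO. Against the other toxicants LDHA alone was called, where 2.45% of all genes were (1.2% higher and 1.24% lower); it stood at 306, 292 and 253 CPM (0.38, SE 0.0799, adjusted p = 0.00923). That call was lost without 6-HD replicate 1 or 2 and with MS275 left out of the mean. Replicate 1 was the highest of the 6-HD libraries for 11 of 16 hypoxia targets.

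**Figure D4:**
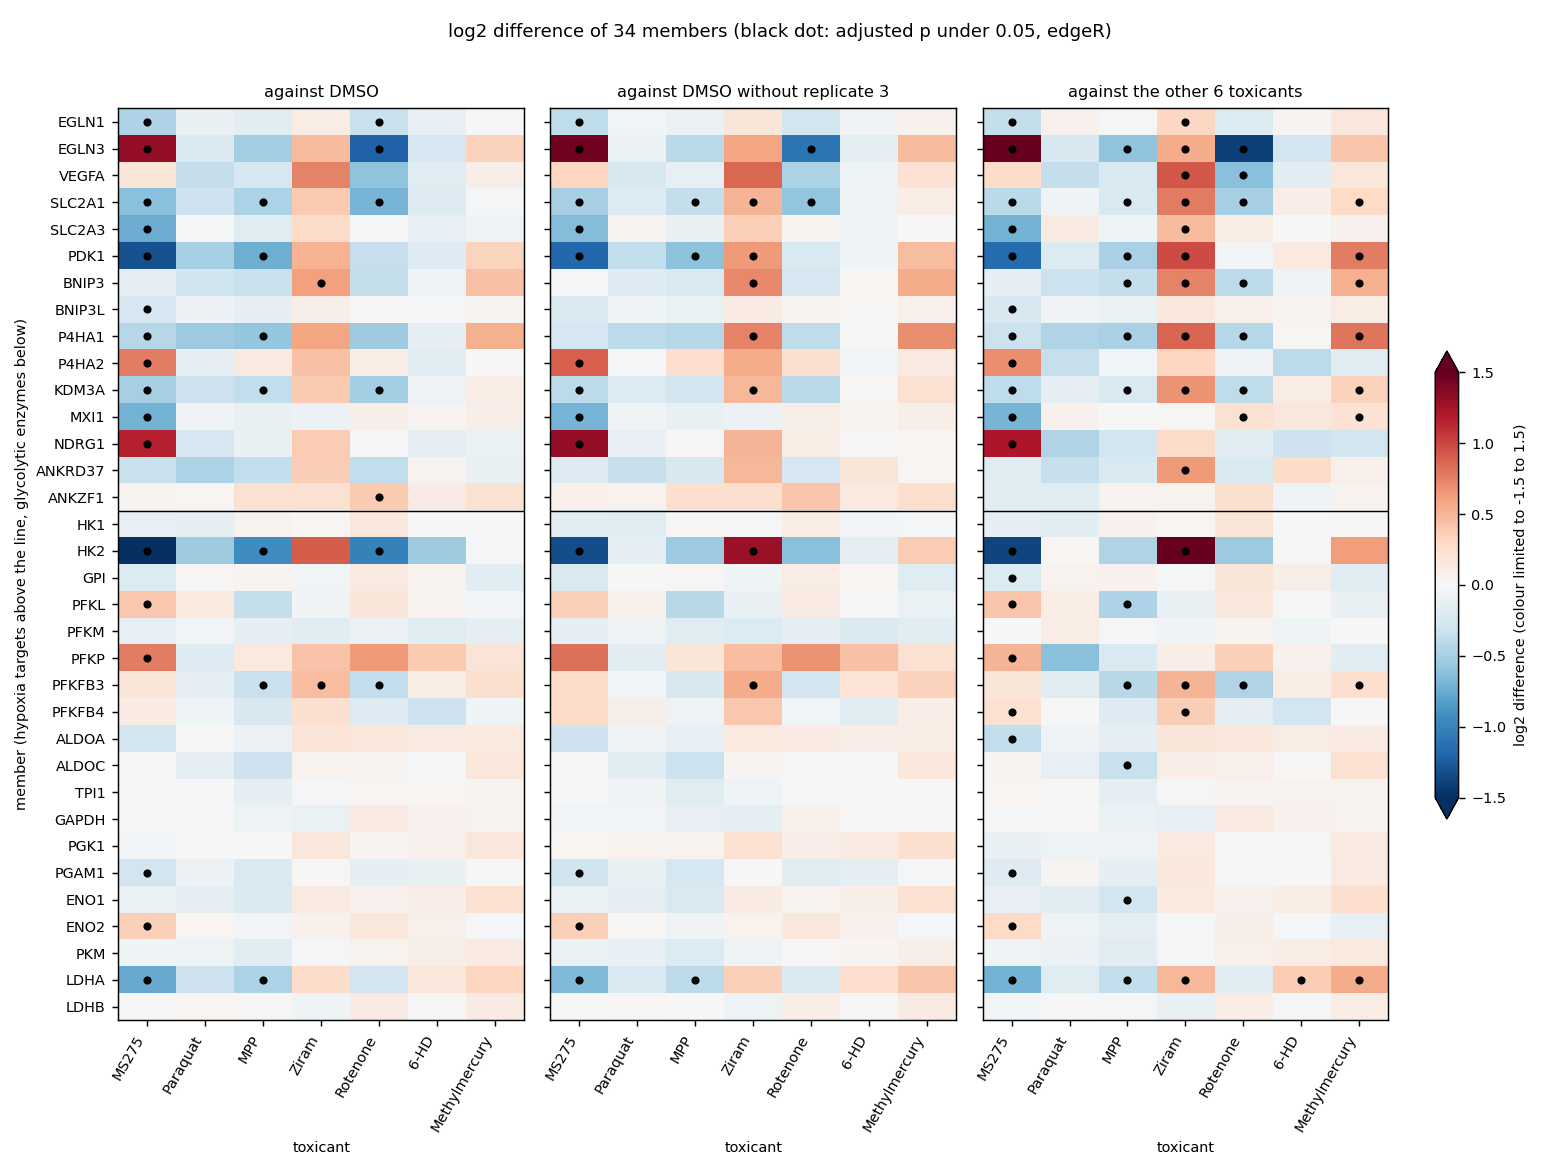
log2 difference of 34 members (rows) for the 7 toxicants (columns) against DMSO (left), against DMSO without replicate 3 (middle) and against the mean of the other 6 toxicants (right); a black dot marks an edgeR adjusted p under 0.05. Ziram gains dots without DMSO replicate 3 (from 2 to 7), MPP and rotenone lose them (from 7 to 3 and from 7 to 2), and the rows of GAPDH, TPI1, PGK1, PKM and LDHB carry none.

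Across groups, PDK1 was highest with ziram (94.8 ± 14.6 CPM, SD, n = 3) and methylmercury (83.6 ± 9.16 CPM), then DMSO (66.1 ± 9.67), 6-HD (57.8 ± 8.44), rotenone (52.1 ± 5.63), paraquat (47.1 ± 8.27), MPP (39.9 ± 3.12) and MS275 (26.7 ± 3.11 CPM). Only MS275 was apart from its neighbour in this order; the libraries of each other pair of neighbours overlapped. The order of SLC2A1 ended with rotenone (49.7 ± 2.91 CPM) and MS275 (52.2 ± 4.28 CPM), and ziram (105.9 ± 1.78 CPM) stood above all other libraries. For BNIP3 the top was again ziram (177.6 ± 17.8 CPM) and methylmercury (157 ± 23.9 CPM), whose libraries overlapped, and rotenone, MPP and paraquat lay together between 83.2 and 99.6 CPM. The 16 tested hypoxia targets were each called in at least 1 of the 15 comparisons, as were 67% of all genes. For the scarce ADM this was 1 call, with MS275 against the other toxicants. Of the 19 glycolytic genes 7 were called in 0: HK1, PFKM, TPI1, GAPDH, PGK1, PKM and LDHB. The group means of GAPDH spanned only 1516 (ziram) to 1758 CPM (rotenone).

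Ratios of related members within a library do not depend on the scaling of the library. Each toxicant was set against DMSO for 10 pairs, which made 70 exact permutation tests (two-sided); with 3 against 3 libraries the smallest p is 0.1, so none can pass, and the smallest adjusted p was 0.194. The log2 ratio of LDHA to LDHB reads was -2.47 ± 0.17 in DMSO (SD, n = 3). It was below all DMSO libraries with MS275 (by a difference of -0.75), MPP (-0.48), rotenone (-0.42) and paraquat (-0.34), and above them with ziram (0.34). HK1 to HK2 ran the other way, with differences of 1.61 (MS275), 1.08 (rotenone), 0.96 (MPP) and -0.95 (ziram), each without overlap. In DMSO replicate 3 the HK1 to HK2 ratio was 2.55 against 3.67 and 3.52.

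Within the mitophagy pair, BNIP3 to BNIP3L was above all DMSO libraries with ziram (0.53) and methylmercury (0.39) and below them with rotenone (-0.38), paraquat (-0.20) and MPP (-0.20). In the transporter pair, SLC2A1 to SLC2A3 was below DMSO with rotenone (-0.67), paraquat (-0.29) and MPP (-0.29), whereas with MS275, where both genes fell, and with ziram, 6-HD and methylmercury it overlapped with DMSO. EGLN1 to EGLN3 was lower with MS275 (-1.78), methylmercury (-0.37) and ziram (-0.37) and higher with rotenone (0.90). Libraries also separated from DMSO in the remaining pairs. ALDOA to ALDOC was above DMSO with MPP (0.23), 6-HD (0.15) and ziram (0.14) and below it with MS275 (-0.28). PFKM to PFKP was below with MS275, rotenone, ziram and 6-HD, and PFKL to PFKP with MPP and rotenone. ENO1 to ENO2 was below with MS275 and MPP and above with methylmercury. PFKM to PFKL was below with MS275 and above with MPP.

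**Figure D5:**
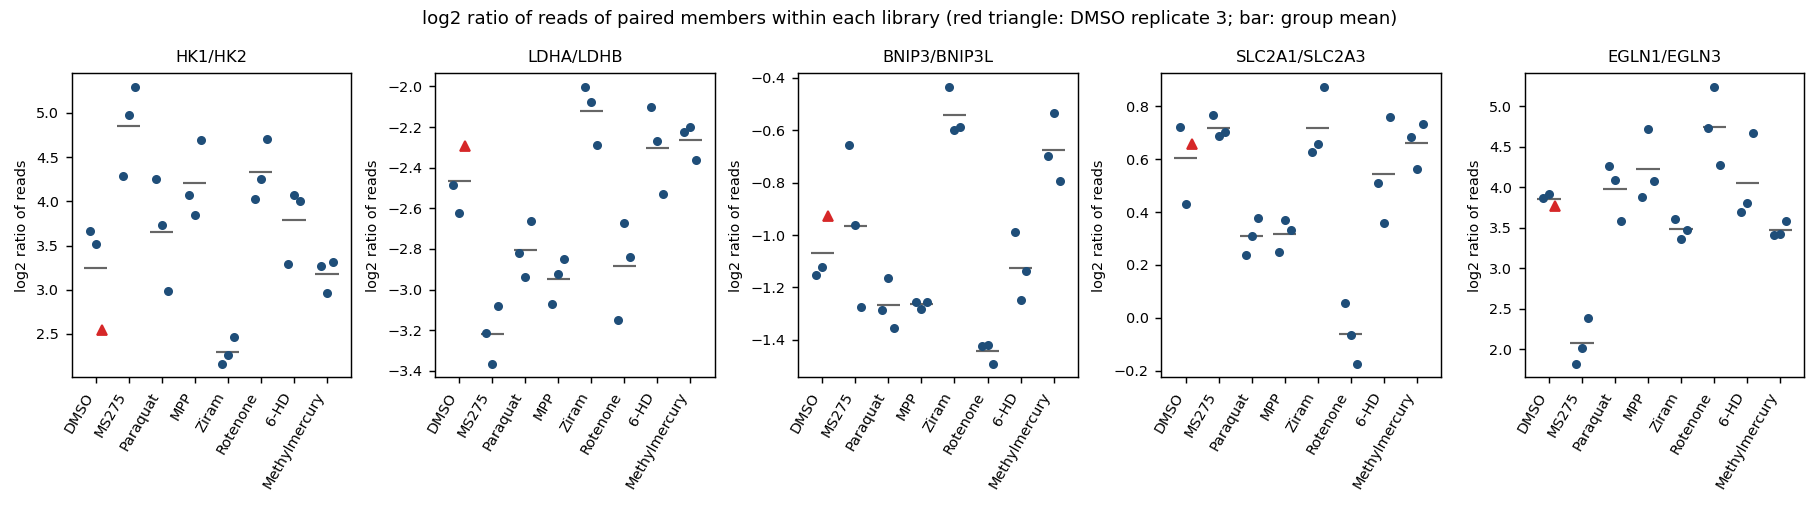
log2 ratio of reads of HK1 to HK2, LDHA to LDHB, BNIP3 to BNIP3L, SLC2A1 to SLC2A3 and EGLN1 to EGLN3 in each library by group; the red triangle is DMSO replicate 3 and bars are group means. LDHA to LDHB is below DMSO in the MS275, paraquat, MPP and rotenone libraries and above it in the ziram libraries, and for HK1 to HK2 DMSO replicate 3 (2.55) lies near the ziram libraries (2.16 to 2.47).

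HIF1A was at 228.2 ± 9.63 CPM in DMSO and 227.9 ± 10.9 CPM with ziram (SD, n = 3), and neither HIF1A nor VHL was called with any toxicant against DMSO. ARNT, the stable partner, fell with MS275 (-0.31, SE 0.103, adjusted p = 0.0144). Of 12 subunits and regulators 3 were called with MS275, 1 higher and 2 lower, where 43.2% of all genes were called: EPAS1, the HIF2 alpha subunit, rose from 0.19 ± 0.13 to 1.82 ± 0.47 CPM, and CUL2, a scaffold of the VHL ligase, fell by 0.75. HIF1AN, the asparaginyl hydroxylase that restrains HIF, fell with MPP (-0.35, SE 0.0991). With each of the other 5 toxicants 0 of the 12 were called. HIF is set mainly by protein stability, which mRNA does not report.

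Among 24 other hypoxia targets, 1 was higher with ziram: STC2, a secreted glycoprotein that stress pathways beside HIF also raise, went from 8.63 ± 3.00 to 26.4 ± 4.16 CPM (1.59, SE 0.22, adjusted p = 4.2e-05). With rotenone 1 was higher and 1 lower: DDIT4, an inhibitor of mTORC1, fell from 36.6 ± 4.13 to 15.0 ± 3.63 CPM (-1.33, SE 0.177). With MPP 1 was higher and 4 lower, with DDIT4 (-0.66, SE 0.165) among the lower. NRN1 of the same list went the other way. It stood at 496.3 ± 11.7 CPM with rotenone and 492 ± 12.1 CPM with MPP, against 355.3 ± 22.2 CPM in DMSO. With MS275, where 43.2% of all genes were called, 8 were higher and 6 lower. The shares of all genes called were 0.53% for ziram, 5.52% for rotenone and 10.8% for MPP, and with the other 3 toxicants 0 of the 24 were called. Of 18 genes of pyruvate and lactate handling, 5 were higher and 4 lower with MS275, where 43.2% of all genes were called. With MPP 2 were higher and 2 lower, with rotenone 1 and 1, and with the other 4 toxicants 0 were called. PDK4, a sister kinase of PDK1, rose with MS275 (3.00, SE 0.361), MPP (1.70, SE 0.362) and rotenone (1.30, SE 0.38), from 1.06 ± 0.21 CPM in DMSO. PDK4 was thus higher under MS275 and MPP, where PDK1 was lower. SLC16A3, the lactate exporter that HIF can raise, was higher with MS275 (1.10, SE 0.143). DLAT of the same list stood lower, at 51.7 ± 4.17 CPM with MS275 against 105.6 ± 1.93 CPM in DMSO. The 22 genes of the pentose phosphate pathway and side branches, 16 of them tested, had 7 calls with MS275, a share near the 43.2% of all genes, 1 each with MPP and rotenone and 0 with the other 4 toxicants.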

How the data were processed

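Per the labels, polyA-selected RNA was depleted of ribosomal sequences and sequenced with TruSeq libraries on an Illumina HiSeq. The submitters' processing notes name STAR, HTSeq, DESeq and the build GRCh38. Versions, gene annotation, strandedness and how multiply matching reads were handled were not given in the sources used here. Raw counts per gene and a normalized signal were deposited for 24 libraries. The deposited normalized signal was the counts divided by 1 factor per library: 100% of values came out whole within a tolerance of 0.01 and equalled the raw counts. All tests used the raw counts (8136 genes called for MS275 against DMSO, for example), and none was run on the recovered reads.

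The counts were fitted with edgeR 4.0.16 in R 4.3.3 (TMM scaling, default expression filter, 18852 genes kept, 1 coefficient per group over 24 libraries, 16 residual degrees of freedom) and tested with the quasi-likelihood F test, with Benjamini-Hochberg adjustment over all genes of a comparison at 0.05. The 15 comparisons were each toxicant against DMSO, each against the mean of the other 6, and MPP against paraquat. List levels by library used log2 of CPM plus 0.5, and read ratios 0.5 added reads. The procedure was tested on simulated data. Alternatives were other scaling, no filter, DESeq2 1.42.0, a replicate block, only the groups compared and each replicate left out; the contrast without MS275 was added after seeing the data.

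The 36 members and the other gene lists were chosen with earlier results of these data known. Named genes were the members called, up to 6 per direction and comparison by size, PDK1, SLC2A1 and BNIP3 in each comparison with DMSO, and up to 3 genes per other list; VEGFA, BNIP3L, GAPDH and others given as levels were named as members. Gene lengths came from GENCODE 29, which held all 36 members. Rows named as pseudogenes of a member held at most 1.69% of its reads, apart from EGLN3 (7.41% in 1 library), so reads exchanged with copies cannot be told apart beyond that. Replicates are labelled as biological samples, and p-values measure the spread between them. No pair of replicates agreed within sampling noise.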

Additional observations from a re-analysis of the deposited data

How the results depend on the processing

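Counts of members called depended on the processing most for ziram against DMSO (2): 5 with library totals, 8 with no expression filter, 7 with DESeq2, 10 with only these groups fitted and 1 with a replicate block. Library totals gave 11 for MPP against DMSO and 21 against the other toxicants. No expression filter gave 12 for rotenone and 2 for methylmercury against DMSO, and 3 for paraquat and 2 for 6-HD against the other toxicants. DESeq2 gave 2 for methylmercury against DMSO, and 4 for paraquat and 2 for 6-HD against the others. With only the groups compared fitted, MPP had 12 and rotenone 1. Leaving MS275 out of the mean gave 0 for 6-HD. The cause of these shifts was not tested. No called member reversed under the settings run.

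Without 1 replicate, counts against DMSO ranged from 3 to 7 (MPP), 0 to 7 (ziram), 2 to 8 (rotenone) and 0 to 1 (methylmercury); against the other toxicants from 0 to 3 (paraquat), 6 to 15 (MPP), 6 to 15 (rotenone), 0 to 2 (6-HD) and 4 to 10 (methylmercury); and for MPP against paraquat from 0 to 1. Hypoxia medians against DMSO ranged from -0.36 to -0.11 (paraquat), -0.36 to -0.12 (MPP), 0.33 to 0.51 (ziram), -0.214 to 0.0017 (6-HD) and 0.012 to 0.179 (methylmercury); against the others from -0.33 to -0.14 (paraquat), -0.27 to -0.10 (MPP) and -0.35 to -0.20 (rotenone). The glycolytic median of rotenone ranged from -0.087 to 0.218 against DMSO and -0.0745 to 0.206 against the others.

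Replicate numbers did not pair the libraries: same-numbered libraries had correlations of deviations from -0.224 to 0.223 (median -0.00931), and 4 of 24 libraries correlated best with their own number. The replicate block changed the count beyond 1.5 times for ziram against DMSO alone (from 2 to 1). With 3 libraries a group and totals down to 9688650 reads, ADM and CA9 were too scarce to compare.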
